A study of Mus musculus with 3 samples.

Results

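The nuclear basket and its partners were followed here through 6 genes, Nup153, Tpr, Nup50, Senp1, Senp2 and Mad1l1, chosen by symbol as the components of the basket and the proteins known to dock on it. They are 6 of the 24421 genes counted in mouse embryonic stem (ES) cells. All 6 passed the filter on low counts, an average of 10 or more reads per library, which left 16670 genes.

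Gene expression was measured by RNA-Seq of ribosome-depleted total RNA in 3 libraries of EL16.7, a female mouse ES cell line of mixed 129S1 and CastEiJ background. Control cells carried a control shRNA and are labelled wild type, and the NUP153 KD-1 and NUP153 KD-2 cells each carried a different shRNA against Nup153. All cells were infected with lentivirus, selected in 2 µg/ml puromycin for 2 days, and grown with LIF on irradiated fibroblast feeders. Each condition is 1 library of 1 line, so the differences have no replicate check, and they compare libraries. The control library had 72344726 reads on genes, the KD-1 library 85258834 and the KD-2 library 69839336.

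The nuclear basket is a cage of filaments on the nucleoplasmic face of the nuclear pore complex (NPC), built around the large coiled-coil protein TPR, with NUP153 anchoring it to the nuclear ring. NUP50 is a mobile basket protein that binds NUP153 and helps importins release their cargo. The basket also docks enzymes and checkpoint proteins, among them the SUMO proteases SENP1 and SENP2, which remove SUMO from proteins, and MAD1, a spindle checkpoint protein that TPR binds. In ES cells NUP153 has in addition been studied as a chromatin-binding protein, and the knockdown libraries ask what its loss does to transcription.

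The upstream stretches of the 3 structural basket genes are shown because the level of these genes is what the RNA-Seq reads report. The sequences are from RefSeq on GRCm38.p6, where all 6 members had an entry, are written 5′ to 3′ on the gene's own strand, and end at the base before the first start in GENCODE or RefSeq. For Tpr the RefSeq gene record begins 36 bases before the start used for its position and its window, so its stretch ends there, and a second stretch of 30 bases over this region holds a run shared with Nup153. Capitals mark TGATGACGCAA in Nup153 and Tpr and CGCATGCG, the core of the motif of the transcription factor NRF1, in Nup50.
Nup153, chr13:46727941-46728099, minus strand: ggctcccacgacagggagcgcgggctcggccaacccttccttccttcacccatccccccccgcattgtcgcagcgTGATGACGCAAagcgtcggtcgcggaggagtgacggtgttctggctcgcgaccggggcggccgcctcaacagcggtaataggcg
Tpr, chr1:150392588-150392801, plus strand: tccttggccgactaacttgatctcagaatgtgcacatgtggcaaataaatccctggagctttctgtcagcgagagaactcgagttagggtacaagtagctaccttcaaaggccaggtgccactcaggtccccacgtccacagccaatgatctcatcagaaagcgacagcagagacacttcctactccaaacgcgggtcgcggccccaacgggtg
Tpr, chr1:150392797-150392826, plus strand: gggtgcagacTGATGACGCAAgccgtcccg
Nup50, chr15:84923178-84923410, plus strand: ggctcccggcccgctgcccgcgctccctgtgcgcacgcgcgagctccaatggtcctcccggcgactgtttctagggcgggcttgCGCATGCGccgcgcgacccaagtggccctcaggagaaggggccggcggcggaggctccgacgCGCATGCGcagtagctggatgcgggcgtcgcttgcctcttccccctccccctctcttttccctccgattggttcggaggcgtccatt

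The longest run shared by the windows of 2 members, on either strand, was 15 bases in Nup153 and Nup50, ACAGGGAGCGCGGGC, which lies in both printed stretches, in Nup50 on the other strand. Of 32851 windows, 2 held it, those of these members. Every one of the 15 pairs of members shared a run of at least 8 bases. The run of 11 bases shared by Nup153 and Tpr, TGATGACGCAA, began 175 bases before the start on which the RefSeq window is set in Nup153 and 31 bases before that in Tpr, where it lies after the first base of the RefSeq gene record, on the strand of the gene in both. Searched on both strands, this run lay in 14 of 32851 RefSeq windows of 300 bases (0.0426%), each from 250 bases before to 50 bases after a start. Both runs were picked because members share them, so their rarity is a description and no test. TGATGACGCAA contains TGACG, the shorter form of the cAMP response element, which was present in 20.8% of windows and among the members in those of Nup153, Tpr and Senp2. Only the window of Senp2 held the full element TGACGTCA, found in 1.79% of windows. Both copies of CGCATGCG in Nup50 lay upstream, 166 and 104 bases before the start, and 1.87% of windows held the motif. TATAAA was in 13.6% of windows and in none of the members' windows. The Nup153 and Nup50 windows were rich in G and C, at 74.0% and 69.0% against a median of 52.7% over all windows, and the Tpr window had 58.0%. A match of letters is not a binding site, and no binding of a factor was measured here.

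The levels of the members in control cells spanned a wide range. They were compared as RPKM, reads scaled to the length of the annotated exons (GENCODE) in kilobases and to the total of reads on genes, since longer genes collect more reads. Tpr was at 64.5 RPKM in control, 65.3 in KD-1 cells and 52.6 in KD-2. Nup153 was at 54.9 RPKM in control, 27.5 in KD-1 cells and 22.7 in KD-2. In control both basket scaffold genes were above 93.9% or more of the 16047 tested genes with an exon length, whose median was 2.44 RPKM. Nup50 was at 20.4, 20.8 and 18.8 RPKM in the same order of libraries. Senp2 was at 15.02, 12.8 and 11.7 RPKM, and Mad1l1 at 5.45, 5.79 and 5.01 RPKM. Senp1 had the lowest level of the members, at 1.88, 2.06 and 1.45 RPKM, below the median gene of each library.

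In control the order was therefore Tpr, Nup153, Nup50, Senp2, Mad1l1 and Senp1. Of the neighbours in this order, Tpr and Nup153 overlapped in their ranges over the 3 libraries, and each of the other 4 pairs was separate. The order in part follows the length chosen. Per kilobase of the longest coding transcript, a choice added after the values were seen, Senp2 with 23.0 RPKM in control came before Nup50 with 20.9 and their ranges overlapped, while Tpr with 90.5 and Nup153 with 63.1 no longer did. SENP1 and SENP2 both dock on the basket and cleave SUMO, and Senp1 gave 17.8% of the reads of the pair in control, 21.7% in KD-1 cells and 17.6% in KD-2.

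**Figure D1:**
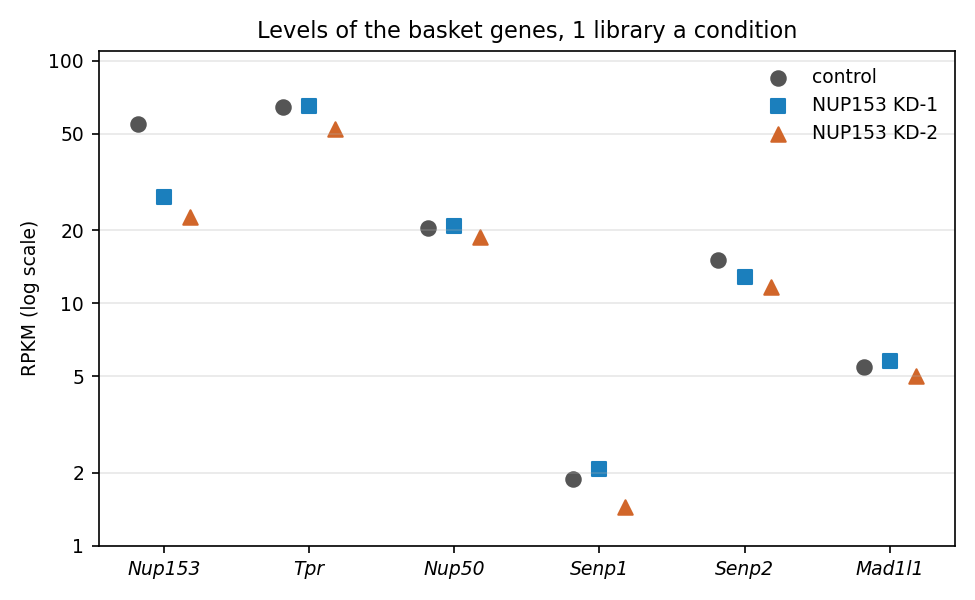
Level of each of the 6 genes in the control (circles), NUP153 KD-1 (squares) and NUP153 KD-2 (triangles) libraries, as RPKM on a log scale, with 1 point for each library. Nup153 was at 54.9 RPKM in control against 27.5 and 22.7 in the knockdowns, and the order of the 6 genes was the same in the 3 libraries.

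The targeted gene, Nup153, checks the labels. Nup153 (ENSMUSG00000021374.10) lies on chr13:46679905-46727940 of GRCm38, on the minus strand, and shares no exon bases with another annotated gene. It had 27870 reads in control, 16451 in KD-1 cells and 11126 in KD-2. After scaling each library to the same upper quartile, these were 29595, 15052 and 11451 scaled reads. Both libraries labelled as knockdowns were thus below control, and with this scaling KD-2 was the lower of them. The difference between KD-1 and KD-2, 0.39 on the log2 scale, has an interval of -0.01 to 0.80 with an assumed coefficient of variation of 10%, and came to -0.01 with the libraries scaled on 12 pluripotency markers.

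The log2 fold change of Nup153 against control was -0.98 in KD-1 (95% counting interval -1.003 to -0.948) and -1.37 in KD-2 (-1.40 to -1.34). KD-1 was 49.1% and KD-2 61.3% below control. The intervals come from the exact binomial distribution of the reads and cover counting error only. If the spread between libraries is taken as a coefficient of variation of 20%, an assumed value, the interval is -1.78 to -0.18 in KD-1 cells and -2.17 to -0.57 in KD-2, which does not reach 0 in either. In a bulk library, a lower level in every cell and a mixture of cells with and without the knockdown give the same reads, as do fewer cells of a type and less RNA per cell, and these cannot be told apart.

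Nup153 was the 261st lowest of 16670 genes in KD-1 cells and the 75th lowest in KD-2, and genes of few reads filled many of the lower places. Among the 7881 genes that averaged 1000 reads or more it was the 58th lowest in KD-1 cells and the 2nd lowest in KD-2. Of these 7881 genes 1, Nup153 itself, was at or below its values in both libraries. Of all 16670 genes 10 were, Nup153 included.

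The other 5 members were nearer to control. With a change past 1.5-fold in either direction as the call, 1 of 6 members was called in KD-1, beside 14.4% of all genes tested (5.39% lower and 8.98% higher), and 1 of 6 in KD-2, beside 26.9% of all genes (7.53% lower and 19.4% higher). Nup153 was the called member in both. It is the gene that the shRNAs target, so this count is a check of the knockdown, and 0 of the other 5 were called in either library. The split of all genes called depends on the scaling. In KD-1 it was 1497 higher and 899 lower, but 1230 and 1132 with DESeq2's size factors and 961 and 1474 with 12 pluripotency markers as the scale. In KD-2 it was 3232 higher and 1255 lower, but 3942 and 820 with totals of reads and 5081 and 466 with the markers.

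**Figure D2:**
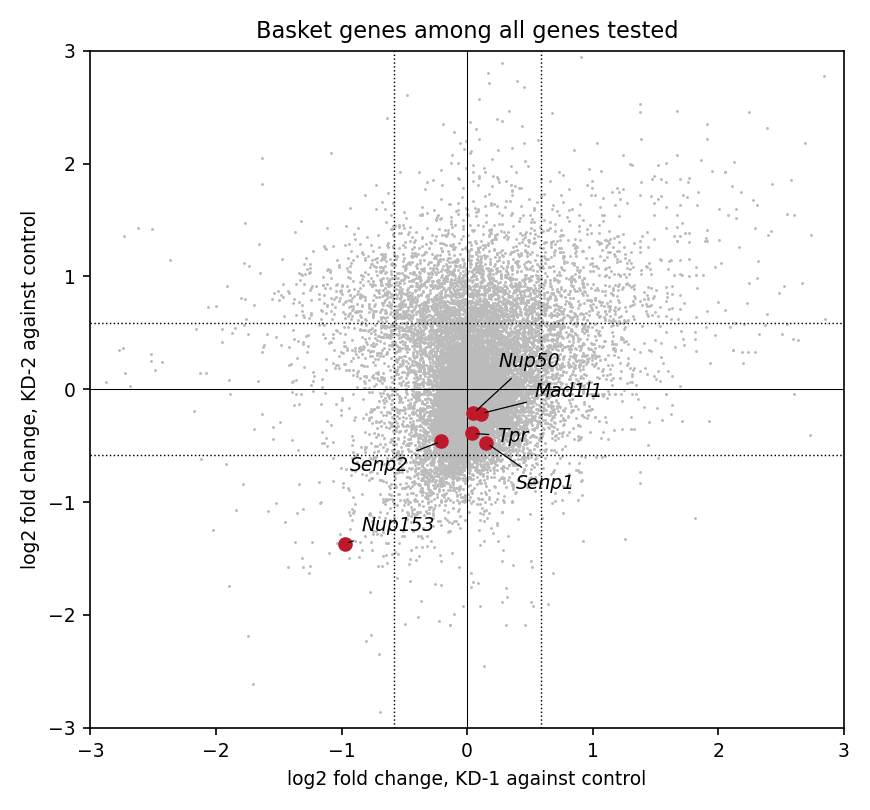
Log2 fold change of every gene tested (grey points) in KD-1 against control on the x axis and in KD-2 against control on the y axis, with the 6 genes in red and dotted lines at 1.5-fold. Both axes share the control library, 22 genes lie outside the plotted range, and Nup153 lies at -0.98 and -1.37 with the other members between the dotted lines.

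Tpr (chr1:150392838-150449935, plus strand), which encodes the filament protein of the basket, had 51987 scaled reads in control, 53439 in KD-1 cells and 39658 in KD-2. KD-1 was level with control and KD-2 was lower than both. The log2 fold change was 0.04 in KD-1 (0.02 to 0.06) and -0.39 in KD-2 (-0.41 to -0.37). With an assumed coefficient of variation of 10%, the interval in KD-2 runs up to 0.01. Of all genes, 50.8% had a lower fold change than Tpr in KD-1 cells and 17.7% in KD-2. Tpr shares some exon bases with Prg4, a counted gene on the opposite strand, and which strand was counted is not given in the sources used here.

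Nup50 (chr15:84923411-84942963, plus strand), the partner of NUP153 in cargo release, had 7654 scaled reads in control, 7929 in KD-1 cells and 6606 in KD-2. The libraries were within a narrow range, with KD-2 the lowest. The log2 fold change came to 0.05 in KD-1 (0.01 to 0.10) and -0.21 in KD-2 (-0.26 to -0.16), and both intervals include 0 once a coefficient of variation of 10% is assumed.

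Senp1 (chr15:98038744-98093744, minus strand) had 1719 scaled reads in control, 1911 in KD-1 cells and 1236 in KD-2. The knockdown libraries lay on either side of control. The log2 fold change came to 0.15 in KD-1 (0.06 to 0.25) and -0.48 in KD-2 (-0.58 to -0.37). Senp1 shares some exon bases with Pfkm, which lies on the opposite strand.

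Senp2 (chr16:22009484-22049269, plus strand), the other SUMO protease of the basket, had 7965 scaled reads in control, 6909 in KD-1 cells and 5784 in KD-2. Both knockdown libraries were below control, as they also were for Tpr and Nup50 with DESeq2's size factors and for Tpr and Senp1 with scaling on the pluripotency markers. The log2 fold change came to -0.21 in KD-1 (-0.25 to -0.16) and -0.46 in KD-2 (-0.51 to -0.41). With an assumed coefficient of variation of 10%, the upper bound in KD-2 was -0.06 for Senp1 and -0.06 for Senp2, and with 20% both intervals include 0.

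Mad1l1 (chr5:140008689-140321552, minus strand), which encodes MAD1, had 1528 scaled reads in control, 1647 in KD-1 cells and 1315 in KD-2. As for Senp1, KD-1 was above control and KD-2 below. The log2 fold change came to 0.11 in KD-1 (0.01 to 0.21) and -0.22 in KD-2 (-0.33 to -0.11).

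**Figure D3:**
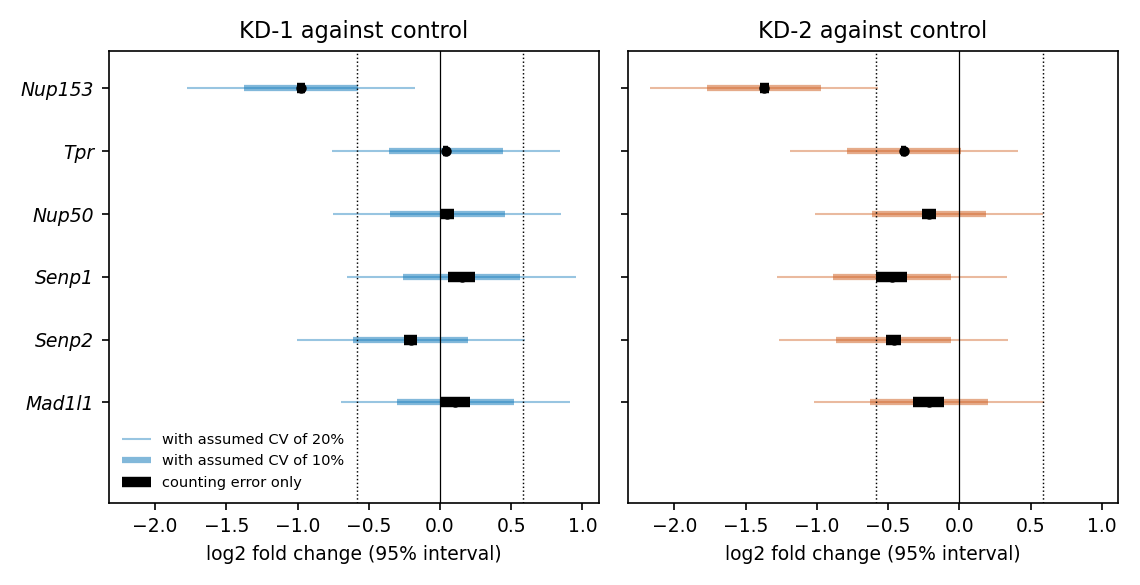
Log2 fold change of each gene in KD-1 (left) and KD-2 (right) against control, with 95% intervals for counting error only (black), and for counting error with an assumed coefficient of variation (CV) between libraries of 10% (thick bars) and 20% (thin bars). Dotted lines mark 1.5-fold, and Nup153 is the gene whose widest intervals, -1.78 to -0.18 and -2.17 to -0.57, stay below 0.

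The 5 members other than Nup153 had a median of 0.05 on the log2 scale in KD-1, with 4 higher and 1 lower than control, and of -0.39 in KD-2, with 0 higher and 5 lower. The median over all genes was 0.03 and 0.04. The small positive values in KD-1 depend on the scaling, since those of Tpr and Nup50 became -0.04 and -0.02 with DESeq2's size factors, and all 5 members were below control when the libraries were scaled on 12 pluripotency markers, a setting added after the values were seen. In KD-2 all 5 stayed below control with the upper quartile, TMM, DESeq2's size factors and totals of reads, and 3 of 5 did so with the pluripotency markers, where Nup50 and Mad1l1 came to 0.02 and 0.02.

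Markers of the feeder cells moved with the libraries. The 12 fibroblast markers, among them the collagen gene Col3a1 and the matrix gene Postn, summed to 1898 RPM (reads scaled to the library total) in control, 979 in KD-1 cells and 3450 in KD-2, with none of them at 0 reads in any library. All 12 were below control in KD-1 cells and all 12 above it in KD-2. The 12 pluripotency markers, with Pou5f1 and Nanog among them, summed to 4950, 5341 and 4063 RPM, and none was at 0 reads. Of these markers 9 were above control and 3 below in KD-1, and 3 were above and 9 below in KD-2, where Utf1, Esrrb and Klf4 were the higher ones. The order of the sums, KD-1 above control above KD-2, is the order of Tpr, Nup50, Senp1 and Mad1l1. Reads on 3 genes that collect ribosomal RNA took 0.833%, 3.54% and 2.24% of the reads on genes. The part of feeder cells and ribosomal RNA in the members' values was not tested.

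Both knockdown libraries share the control library, so KD-1 was also compared with KD-2 directly. All 6 members were higher in KD-1. The log2 difference was 0.39 for Nup153, 0.43 for Tpr, 0.26 for Nup50, 0.26 for Senp2 and 0.32 for Mad1l1. Senp1 had the largest difference of the members, 0.63 (0.53 to 0.73), or 1.55-fold, and it was the 1 of 6 members past 1.5-fold, beside 29.2% of all genes (17.6% lower and 11.7% higher). Senp1 was under 1.5-fold with DESeq2's size factors, at 0.57, and with totals of reads, at 0.51. The split between KD-1 and KD-2, 1944 higher and 2930 lower, was 1544 and 3189 with DESeq2's size factors, 1229 and 3525 with totals of reads and 477 and 5503 with the pluripotency markers. With scaling on the pluripotency markers, the differences of Nup153, Nup50, Senp2 and Mad1l1 turned negative, and that of Senp1 was 0.23.

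A ratio within a library needs no scaling, and was added after the values were seen. For each read of Tpr there were 0.569 reads of Nup153 in control, 0.282 in KD-1 cells and 0.289 in KD-2. The ratio to Tpr was therefore 49.5% of control in KD-1 cells and 50.7% in KD-2. For each read of Nup50 there were 3.87, 1.90 and 1.73 reads of Nup153, and for each read of Mad1l1 there were 19.4, 9.14 and 8.71. Against Senp1 the ratio was 17.2, 7.88 and 9.26, and against Senp2 it was 3.72, 2.18 and 1.98.

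Over the 5 partners the median ratio was 49.1% of control in KD-1 cells and 50.7% in KD-2. Nup153 gave 29.5% of the reads of the 6 members in control and 17.3% in each of the knockdown libraries. The individual ratios did not all match in this way. Relative to Senp1, Nup153 was at 45.7% in KD-1 cells and 53.8% in KD-2, and relative to Nup50 it was at 49.1% and 44.8%.

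**Figure D4:**
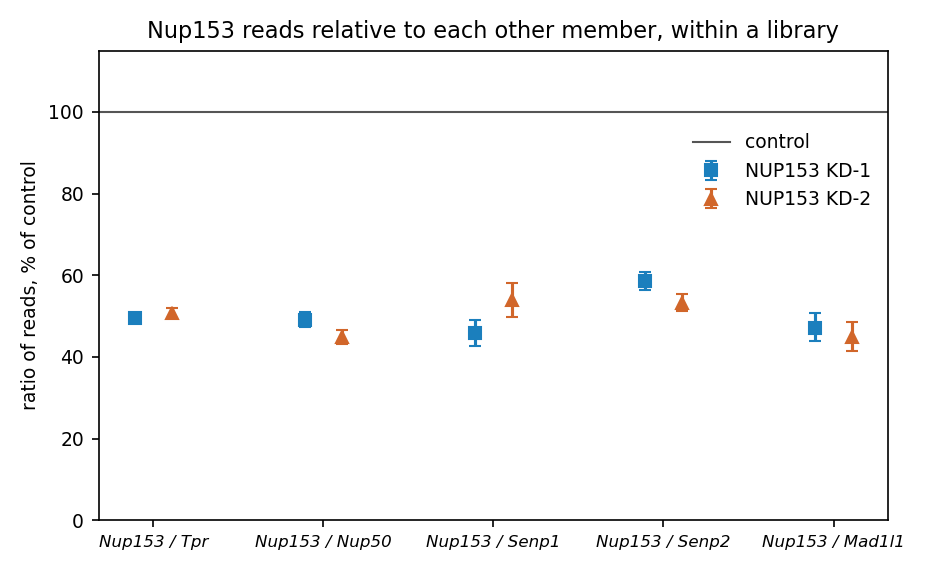
Reads of Nup153 for each read of the 5 other genes, as a percentage of the same ratio in control, in KD-1 (squares) and KD-2 (triangles), with error bars for the 95% counting interval. The ratios lie between 44.8% and 58.6%, and for Tpr they are 49.5% and 50.7%.

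Both knockdown libraries were then taken as 2 samples of 1 condition and compared with control by edgeR's quasi-likelihood test, whose spread comes from the difference between the shRNAs. This called 0 of 16670 genes (0.0%) at a Benjamini-Hochberg adjusted p under 0.05, with 190 genes at an unadjusted p under 0.05, while DESeq2's Wald test called 2. Nup153 had a log2 fold change of -1.18, an unadjusted p of 0.00472 and an adjusted p of 1.00 with edgeR. It was lower in 2 of 2 knockdown libraries. The other members had log2 fold changes from -0.35 for Senp2 to -0.07 for Mad1l1, with unadjusted p from 0.348 to 0.872 in the edgeR test. With 1 residual degree of freedom, these values do not show that the 5 genes were unchanged.

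The genes around the basket were described with lists of the pathways its members serve, chosen with earlier results of these data known. The counts below are of genes above and below control, beside the median of all genes, which was 0.03 in KD-1 cells and 0.04 in KD-2, and no test was made of a list. TREX-2 is the mRNA export complex that docks on the basket. Of 9 TREX-2 and other basket-associated genes, 6 were below control in KD-1 (median log2 fold change -0.03) and 8 in KD-2 (median -0.37). With DESeq2's size factors 8 of the 9 were below control in KD-1 (median -0.10), as with the pluripotency markers (median -0.20), which gave a median of -0.13 in KD-2. Mcm3ap, which encodes the TREX-2 scaffold GANP, was the highest of them in both knockdowns, with 0.17 and 0.11. Cetn3, a centrin gene, was the lowest in both, with 9332 reads in control, 8137 in KD-1 cells and 6157 in KD-2, or -0.41 and -0.64. It was the 1 gene of the list past 1.5-fold, in KD-2, where 7.53% of all genes were past it lower. With totals of reads or the pluripotency markers 0 of the 9 were past it, and with DESeq2's size factors 2 were.

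The other nucleoporins, the structural proteins of the rest of the NPC, lay on both sides of control in KD-1 and almost all below it in KD-2. Of 28, 15 were below control in KD-1 cells and 27 in KD-2, with median log2 fold changes of -0.05 and -0.39. In KD-2 5 of them were past 1.5-fold lower, beside 7.53% of all genes, and 0 were past 1.5-fold higher, beside 19.4%. The lowest in both knockdowns was Nup43, of the Y complex that forms the rings of the NPC, at -0.45 and -0.79. Pom121, a membrane nucleoporin, was the highest in both and the 1 nucleoporin past 1.5-fold in KD-1, where 8.98% of all genes were past it higher, with 656 reads in control, 1288 in KD-1 cells and 677 in KD-2, or 0.76 and 0.00. In KD-1, DESeq2's size factors put 21 of 28 below control and the pluripotency markers 22. Scaling on totals of reads left 24 of 28 below control in KD-2 and 2 past 1.5-fold lower, and scaling on the pluripotency markers left 18 below control and 0 past 1.5-fold lower.

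Of 14 transport receptors and Ran genes, 4 were below control in KD-1 (median 0.09) and 12 in KD-2 (median -0.29). In KD-2 3 of them, Kpna2, Ipo5 and Xpo1, were past 1.5-fold lower, beside 7.53% of all genes, and 0 were with totals of reads or the pluripotency markers. Xpo1, the main nuclear export receptor, was the lowest in both, with -0.11 and -0.67, and Kpna4, an importin alpha, was the highest in both, with 0.37 and 0.30. With the pluripotency markers as the scale, 10 of these 14 were below control in the KD-1 library and 9 in KD-2 (median -0.056), and with totals of reads the KD-2 median was -0.20. Of 15 spindle checkpoint genes, the group in which MAD1 works, 7 were below control in KD-1 (median 0.02) and 14 in KD-2 (median -0.46). With TMM or DESeq2's size factors 10 of them were below control in KD-1, and with the pluripotency markers 14 were in KD-1 and 11 in KD-2 (median -0.23). In KD-2 2 of the 15, Mad2l1 and Bub1, were past 1.5-fold lower, beside 7.53% of all genes. With TMM or DESeq2's size factors 4 were, beside 1348 and 1363 of all 16670 genes. With totals of reads 1 was, beside 820 of all genes, and with the markers 0 were, beside 466. Mad2l1, which encodes the MAD2 protein that binds MAD1, had 16921 reads in control, 17433 in KD-1 cells and 10562 in KD-2, and was the lowest of the list in KD-2 with -0.72. Cdc20, the activator of the anaphase-promoting complex that the checkpoint inhibits, was the highest in KD-2 with 0.24. In KD-1 the checkpoint genes ran from -0.19 for Kntc1 to 0.22 for Spdl1, both genes of dynein recruitment to the kinetochore.

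The SUMO pathway, whose proteases dock on the basket, was split between genes above and below control in both knockdowns. Of its 15 genes, 6 were below control in KD-1 (median 0.08) and 8 in KD-2 (median -0.06). Sumo2, a SUMO gene, was the lowest in KD-1, with 38716 reads in control, 29551 in KD-1 cells and 29445 in KD-2, or -0.60 and -0.44. Senp3, a nucleolar SUMO protease, was the highest in KD-1 with 0.35, and Pias3, a SUMO ligase, was the highest in KD-2 with 0.63 on 325 reads. The median of this list in KD-2 turned positive, 0.04, with totals of reads and came to 0.18 with the pluripotency markers. In KD-1 the small medians changed sign with the scaling, from -0.08 to 0.08 for the SUMO pathway, from -0.15 to 0.02 for the checkpoint genes and from -0.08 to 0.09 for the transport genes. Of the genes in these 5 lists, 0 were past 1.5-fold in both knockdowns in the same direction, beside 4.91% of all genes. That share includes genes averaging as few as 10 reads, and the lists hold none of so few. The feeder markers, whose sum was highest in KD-2, differed between the same libraries as these lists, and their part in the counts was not tested.

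**Figure D5:**
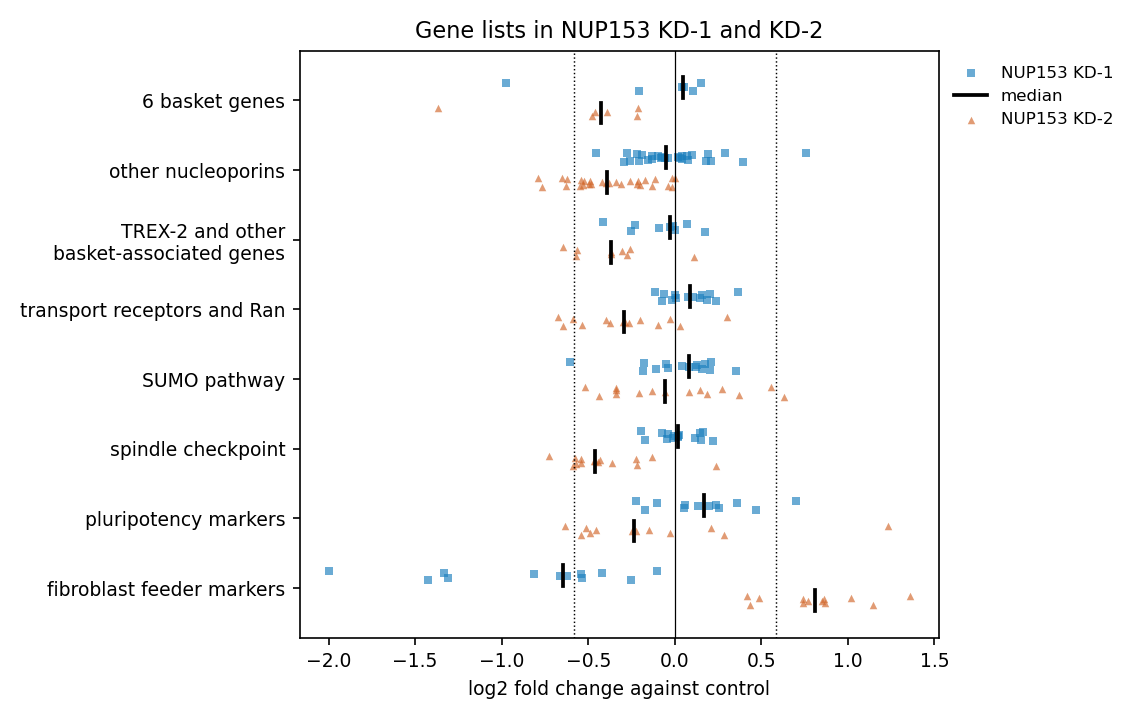
Log2 fold change against control of each gene in 8 lists, in KD-1 (squares) and KD-2 (triangles), with a black bar at the median of each list and dotted lines at 1.5-fold. In KD-2 the medians of the nucleoporins (-0.39) and checkpoint genes (-0.46) lie below 0 and that of the feeder markers (0.81) above it, while in KD-1 the feeder markers lie at -0.64.

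The genes whose pair of fold changes was nearest to that of Nup153 were found among 7880 other genes that averaged 1000 reads or more, by the distance between the pairs of log2 values from the 2 knockdowns. Both values share the control library, and each pair comes from 3 libraries. The nearest was 2810417H13Rik, at a distance of 0.17, with log2 fold changes of -0.81 in KD-1 cells and -1.30 in KD-2. Magohb, which encodes a core protein of the exon junction complex, was next at 0.30, with -0.76 and -1.17, and Trh, the thyrotropin-releasing hormone gene, followed at 0.32 with -0.75 and -1.14. Trh was abundant, with 158182 reads in control, 108967 in KD-1 cells and 74305 in KD-2. Hook1, a gene of a microtubule linker, and Dppa3, a marker of naive ES and germ cells, were farther away, at 0.48 and 0.54. Their log2 fold changes were -0.50 and -1.30 for Hook1 and -0.46 and -1.55 for Dppa3. All of these nearest genes were lower in KD-2 than in KD-1, as Nup153 was.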

How the data were processed

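RNA-Seq reads of 50 bases were trimmed by the authors with Trim Galore 0.4.1 and mapped to mm10 (GRCm38) with TopHat 2.1.1, keeping mapping qualities above 30. The deposited files hold raw counts of reads per gene, without normalization, for 3 libraries. The methods name featureCounts and the submitters' processing notes name HTSeq, and each file closes with 5 HTSeq-type summary lines, which were left out. These lines held 21.5% to 24.1% of reads as on no feature and 1.45% to 1.65% as ambiguous. The files have 0 spike-in rows, so the study's dispersion from spike-ins could not be used, and columns of the authors' comparisons were not used.

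The members and gene lists were chosen with earlier results of these data known. Counts were divided by upper-quartile factors (edgeR 4.0.16, R 4.3.3) from genes averaging 10 or more reads, and log2 differences were taken with a pseudocount of 0.5 scaled reads. With 1 library per condition no p-value was given, and a change past 1.5-fold was called. Counting intervals of 95% on fold changes came from the exact binomial distribution and cover counting error only. Those with an assumed coefficient of variation add that spread. These, and the intervals of ratios relative to control, are normal approximations on the log2 scale. PCR duplicates without molecular identifiers are not independent molecules. Both knockdown libraries were compared with control by edgeR's quasi-likelihood test (TMM) and DESeq2 1.42.0. The p-values measure only the spread between these libraries. The code was run on simulated counts in which both knockdown libraries shared the same changes. That run does not check the p-values where the shRNAs differ. From each of the 5 pathway lists, the genes with the highest and lowest fold change in each knockdown were named among those with a mean of at least 100 reads, as was any gene past 1.5-fold in both, and for likeness to Nup153 the 5 nearest genes averaging 1000 reads or more. Of the values this rule selects, 1 is not reported here and the others are. The marker lists are described by their counts and sums. Positions and exon lengths came from GENCODE on GRCm38, and promoters from RefSeq on GRCm38.p6. The alternatives were TMM, DESeq2's size factors, totals of reads, no filter, a mean of at least 100 reads, a pseudocount of 5, a threshold of 2-fold and each knockdown library left out. A threshold of 1.25-fold, scaling on 12 pluripotency markers, ratios to Nup153 and coding transcript lengths were added after seeing the data. Python 3.11.15, pandas 2.3.3, scipy 1.17.1 and matplotlib 3.10.9 were used.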

Additional observations from a re-analysis of the deposited data

Results flagged for a closer look

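In 4 of the members, the KD-1 library was above control and the KD-2 library below it, so that the same contrast had opposite signs for the shRNAs with upper-quartile scaling. With DESeq2's size factors Tpr and Nup50 were below control in both libraries, and with the pluripotency markers as the scale all 4 were below control in KD-1. The log2 difference between KD-1 and KD-2 was 0.43 for Tpr, 0.26 for Nup50, 0.63 for Senp1 and 0.32 for Mad1l1. Each shRNA has 1 library, and these differences were not tested. The feeder markers, at 979 RPM in KD-1 and 3450 in KD-2, moved in the other direction, and their part in these values was not tested.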

How the results depend on the processing

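Nup153 was below control in both knockdowns under every scaling and filter tried, from -1.14 to -0.97 on the log2 scale in KD-1 and from -1.43 to -1.13 in KD-2. At a threshold of 2-fold, 0 of 6 members were called in KD-1 and in KD-1 against KD-2. At 1.25-fold, 4 of 6 were called in KD-2, all lower, and 4 in KD-1 against KD-2, all higher, beside 9075 and 9365 of all 16670 genes. For KD-1 against KD-2, DESeq2's size factors, totals of reads and scaling on pluripotency markers each left 0 members called, because Senp1 dropped under 1.5-fold. The number of all genes past the threshold in KD-1, KD-2 and KD-1 against KD-2 was 5298, 7461 and 8080 without a filter, 1028, 2816 and 3137 with a mean of at least 100 reads, 771, 1314 and 1882 at 2-fold, and 5370, 9075 and 9365 at 1.25-fold. The median of all genes moved by -0.12 with totals in KD-1 against KD-2, and by -0.17, 0.24 and -0.40 with the pluripotency markers. The pooled test called 4 genes with upper-quartile scaling, 4 without a filter and 2 with DESeq2's Wald test, none of them a member, and the unadjusted p of Nup153 lay between 0.00315 and 0.00658.

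With 1 knockdown library left out, the value is that of the other library against control with TMM scaling. For 4 members the sign without KD-2 was opposite to that of the pooled fit, which restates their opposite signs in the knockdowns. Without KD-1 and without KD-2, the log2 values were -0.40 and 0.011 for Tpr, -0.23 and 0.022 for Nup50, -0.49 and 0.12 for Senp1, and -0.23 and 0.079 for Mad1l1. They were -1.38 and -1.004 for Nup153 and -0.48 and -0.23 for Senp2. The cause was not tested. No paired analysis was possible because each condition has 1 library. Depth limits Mad1l1 and Senp1, with 1201 to 2089 reads in each library, more than the other members.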
